A study of Mus musculus with 16 samples.

Results

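Loss of Clpp in the mouse heart was assessed with the Fgf21 genotype as a second factor, so that 8 libraries without Clpp were set against 8 libraries with it. The 16 libraries are all those of the series. The libraries lacking Clpp were 4 of Clpp knockout (KO) and 4 of double KO hearts, which lack both Clpp and Fgf21. The libraries with Clpp were 4 of wild-type and 4 of Fgf21 KO hearts. Each side thus holds 4 libraries with Fgf21 and 4 without it, and the additive model removes the mean effect of that second deletion before Clpp is tested. Per the labels, all mice ate normal chow, and floxed Clpp, alone or together with floxed Fgf21, was deleted in the whole body by Cre recombinase driven by the β-actin promoter, so the loss is not limited to cardiomyocytes. Clpp KO mice came from crosses of heterozygotes. How the single Fgf21 KO line was made, and the age and sex of the mice, are not given in the sources used here, and neither is whether each library stands for a different mouse. The p-values therefore rest on library-to-library spread, part of which may be technical.

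CLPP is the proteolytic subunit of ClpXP, an ATP-dependent protease of the mitochondrial matrix that removes unfolded and surplus proteins and takes part in the assembly of the mitochondrial ribosome. Cells with stressed mitochondria can raise the integrated stress response, in which factors of the ATF4 family switch on genes of amino acid synthesis, tRNA charging and folate metabolism, and can release the hormone FGF21. Mitochondrial RNA or DNA that reaches the cytosol can be read by nucleic acid sensors, which lead to interferon signalling and the transcription of antiviral genes. The series as a whole is about the part FGF21 plays when heart mitochondria are mildly impaired. The pooled comparison asks which transcripts differ with Clpp on both Fgf21 backgrounds.

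Libraries held 36260545 to 51820727 counts each. Some libraries differed in ways the genotype does not give. Wild-type replicates 2 and 4 held 1729 and 1338 CPM (counts scaled to a common library size, here by the trimmed mean of M-values, TMM) of the atrial myosin light chain Myl7, against 0.2886 to 495.8 CPM in the other 14 libraries. Ucp1, the brown fat uncoupling protein, was above 1 CPM in these same 2 libraries, in Fgf21 KO replicate 4 and in Clpp KO replicate 1. The 4 Y-linked genes Ddx3y, Eif2s3y, Kdm5d and Uty summed to 2.29 CPM in wild-type replicate 2 and 35.3 CPM in wild-type replicate 4, against 54.6 to 81.1 CPM in the other 14 libraries, and Ddx3y was at 0 in wild-type replicate 2. The libraries with Clpp thus differ among themselves in transcripts of the Y chromosome, and the part of this in the results was not tested. Wild-type replicates 1 and 3 were nearly identical (Spearman 0.9971 across genes), and their counts still differed by more than sampling noise, with a chi-square per gene of 5.68, against 23.3 or more in the other pairs within a genotype; both were kept. For some genes named below the call ended without wild-type replicates 2 and 4 or without the 4 libraries with Ucp1 above 1 CPM. The adjusted p in that fit is then given, except under Other observations, where counts per list are given.

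Clpp itself served as the check of the labels. The gene (ENSMUSG00000002660) spans 56990305 to 56996188 of chromosome 17 in GRCm38. In libraries lacking Clpp it ran from 7.255 to 9.678 CPM (median 8.60), and in libraries with Clpp from 28.57 to 46.89 CPM (median 34.6). The groups did not overlap. The fall was 2.07 ± 0.11 on the log2 scale (SE, adjusted p = 6.14e-09; this and all adjusted p-values below are from edgeR's quasi-likelihood test with Benjamini-Hochberg adjustment over all genes tested). Reads on Clpp did not reach 0, since 267 to 355 counts remained, and which exons they came from was not analysed here. Fgf21 was below the count filter. Genes beside Clpp were not called more often than elsewhere. Of 47 tested genes within 1 Mb on either side 2 were called (4.26%), among them Adgre1, and within 10 Mb 4 of 110 (3.64%).

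Of 15255 genes tested, 829 passed an adjusted p of 0.05 and are called here (5.43%). In libraries lacking Clpp 462 were higher (3.03%) and 367 lower (2.41%). The higher calls included the larger changes: 150 of them exceeded 1 log2 unit and 57 of the lower calls did so in the other direction. All 8 libraries lacking Clpp lay above all 8 with Clpp for 189 genes (1.24% of those tested), 179 of them called. They lay below for 38 genes (0.249%), each of them called. The count of calls depended on single libraries and on the tool, with 1640 by DESeq2 and 3417 by limma voom with quality weights. It was 470 without Fgf21 KO replicate 1, 1393 without Fgf21 KO replicate 2, 446, 467, 444 and 514 without Clpp KO replicates 1, 2, 3 and 4, and 516 without double KO replicate 2. All 829 called genes kept their direction in each of these fits. Without wild-type replicates 2 and 4 there were 751 calls, of which 534 were among the 829, and without the 4 libraries with Ucp1 above 1 CPM 465, of which 352 were.

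Scaling decided the direction of smaller changes. The TMM factors were 0.674 to 0.875 in libraries lacking Clpp and 1.13 to 1.83 in those with Clpp. By library totals alone the median of all genes was −0.75 on the log2 scale, against −0.02 by TMM. The share of higher among called genes was then 0.893%, against 55.7% by TMM. Fold changes below are by TMM, and so are relative to the bulk of nuclear transcripts. Many list medians just above 0 by TMM were below 0 by library totals, and their distance from the median of all genes under that scaling is given beside them.

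The share of counts from the 13 mRNAs of mitochondrial DNA (mtDNA), which encode core subunits of the respiratory chain and of ATP synthase, moved with this scaling. It ran from 56.1% to 60.76% of all counts in libraries lacking Clpp (median 58.23%) and from 25.55% to 39.38% in libraries with Clpp (median 38.15%), with no overlap. The difference between the group means was 24.8 percentage points on the Fgf21-intact background and 22.7 points without Fgf21. Fgf21 KO replicate 1 and wild-type replicates 2 and 4 had the lowest shares among the libraries with Clpp, all under 30%.

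**Figure D1:**
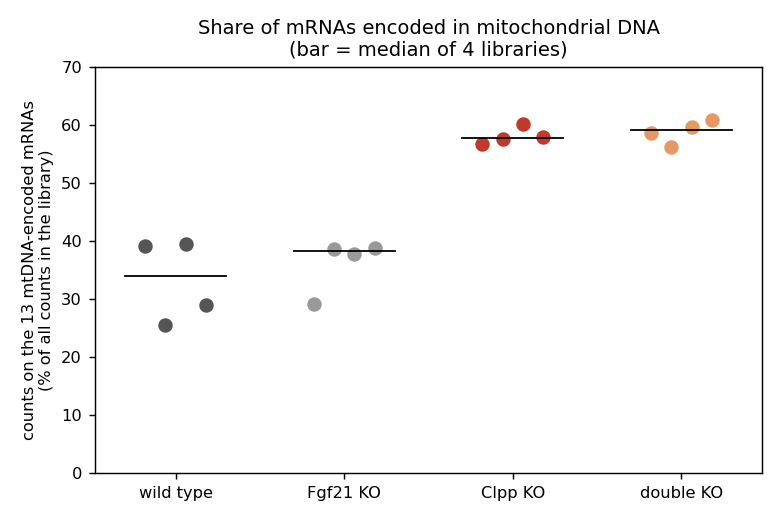
Share of all counts in a library that fell on the 13 mRNAs encoded in mitochondrial DNA, in percent, for 4 libraries of each genotype; points are libraries and bars are medians. The 8 libraries lacking Clpp sit between 56.1% and 60.76%, all above the 8 libraries with Clpp.

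Of the 13 mtDNA-encoded mRNAs 12 rose and none fell, with a list median of 1.53 log2 units against −0.02 for all genes. By library totals the median was 0.86 and 12 of 13 were again called higher. mt-Co2, a subunit of cytochrome c oxidase, ran from 72580 to 110400 CPM without Clpp (median 88000) and from 22450 to 37540 CPM with Clpp (median 33740). Its rise was 1.42 ± 0.12 log2 units (adjusted p = 2.03e-06). mt-Atp6, a subunit of ATP synthase, rose by 1.605 ± 0.15, and mt-Nd1, a subunit of complex I, by 1.57 ± 0.16. mt-Nd3, also of complex I, rose by 1.58 ± 0.14, and its groups overlapped, at 3783 to 15890 against 1332 to 4677 CPM. The mRNA that was not called, mt-Nd6, is the one encoded on the light strand, and was chosen for mention after its values were seen. It stood at 7287 to 13000 CPM without Clpp and 2877 to 8728 CPM with Clpp, a difference of 0.53 ± 0.18 (adjusted p = 0.080) that was −0.16 by library totals. Nearly every 31-base word of mt-Co2 (100%), mt-Atp6 (99.5%) and mt-Nd3 (98.1%) also occurs in another annotated gene, so counts there depend on how reads were shared, while mt-Nd1 shares none. Libraries were made with a stranded mRNA kit, per the labels, and the length of poly(A) tails was not measured.

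Among the lists, interferon-stimulated effectors held the most called genes. Of 42 tested members, antiviral proteins made after interferon binds its receptor, 35 rose and none fell (83.3%, against 5.43% of all genes), and for 26 all libraries lacking Clpp lay above all with Clpp. Across the list the median was 1.01 log2 units, and 37 were called without wild-type replicates 2 and 4. By library totals the median was 0.28, which is 1.03 above that of all genes, with 18 called higher and 6 lower.

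Receptor signalling came first in the order of the pathway, and 6 of its 20 tested factors rose, with none lower. The median of the 20 was 0.11, and −0.61 by library totals, 0.13 above that of all genes, with 3 called higher and 12 lower. Usp18, a protease that removes ISG15 from proteins and dampens the interferon receptor, gave the smallest p of all genes. It ran from 19.82 to 35.8 CPM without Clpp (median 29.1) and from 1.672 to 3.305 CPM with Clpp (median 2.26). Each library lacking Clpp was thus several-fold above every library with Clpp, and the rise was 3.66 ± 0.14 log2 units (adjusted p = 4.01e-11). Irf7, a transcription factor that amplifies the response, ran from 34.09 to 56.68 CPM against 5.999 to 12.5 CPM and rose by 2.50 ± 0.15. Irf9, a transcription factor of the type I interferon response, rose less, by 0.59 ± 0.10, with overlapping groups; it was −0.15 by library totals. Usp18 and Irf7 kept their calls in every fit that left out 1 library.

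The effectors with the smallest p included the Ifit proteins, which bind viral RNA, and Oasl1, a relative of the oligoadenylate synthetases. Ifit1 ran from 14.62 to 27.03 CPM without Clpp (median 18.4) and from 1.961 to 4.105 CPM with Clpp (median 2.70). It rose by 2.83 ± 0.14 log2 units (adjusted p = 1.40e-09), with no overlap. Ifit3 rose by 2.56 ± 0.16 and its near copy Ifit3b by 2.64 ± 0.18; they share 61.8% and 55.2% of their 31-base words with other genes, mainly with each other, and are best read together. Oasl1 was at 4.501 to 6.814 CPM against 0.8062 to 1.494 CPM, a rise of 2.38 ± 0.14. Lgals3bp, a secreted galectin-binding glycoprotein, was far more abundant, at 62.12 to 96.34 CPM against 16.92 to 28.13 CPM, and rose by 1.80 ± 0.11.

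Apol9a, an apolipoprotein L family member, had the largest rise of all named genes, from a median of 0.152 CPM (0.0889 to 0.6036) to 4.71 CPM (2.373 to 11.27). This was 4.55 ± 0.42 log2 units (adjusted p = 4.58e-06). Apol9b, which shares 64.9% of its 31-base words, mainly with Apol9a, rose by 3.35 ± 0.35. Ifi206, an interferon-inducible gene of the PYHIN family, was at 1.335 to 2.424 CPM against 0.0356 to 0.4074 CPM and rose by 3.44 ± 0.31.

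Interferon-inducible GTPases, which attack vacuoles of intracellular pathogens and act in autophagy, rose in 12 of 16 tested members with none lower (75.0%). Their median was 1.03, and 0.29 by library totals. Without the 4 libraries with Ucp1 above 1 CPM 9 were called. Irgm1 stood at 24.78 to 41.18 CPM without Clpp (median 30.0) and 10.86 to 14.24 CPM with Clpp (median 12.6). Its rise was 1.33 ± 0.11 (adjusted p = 1.26e-06). Igtp, also named Irgm3, ran from 30.02 to 85.56 CPM against 7.744 to 12.46 CPM (2.02 ± 0.21), Irgm2 rose by 1.90 ± 0.19 and Iigp1 by 1.75 ± 0.18. The upper end of Igtp was set by double KO replicate 2. A second entry of the table carries the symbol Irgm1 and was not used for these values.

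Among 18 cytosolic sensors of DNA and RNA 7 rose and none fell. Ifih1, which encodes the double-stranded RNA sensor MDA5, was at 8.723 to 13.96 CPM against 3.135 to 5.825 CPM, a rise of 1.34 ± 0.13 (adjusted p = 4.76e-06). Ddx58, which encodes the sensor RIG-I, was at 11.39 to 19.5 CPM against 6.457 to 10.65 CPM and rose by 0.87 ± 0.10. Dhx58, the third member of that family, rose by 0.93 ± 0.16 with overlapping groups. Tlr9, the endosomal receptor for unmethylated DNA, rose by 1.68 ± 0.29 at levels of 0.22 to 0.6124 CPM against 0.041 to 0.1692 CPM. For these sensors the median was 0.35, and −0.38 by library totals, which is 0.37 above that of all genes.

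Presentation of peptides by MHC class I, another target of interferon, rose in 13 of 19 tested genes, with none lower (68.4%). B2m, the light chain of every class I molecule, was at 228.3 to 387.0 CPM without Clpp (median 288.1) and 96.06 to 169.8 CPM with Clpp (median 121.2). The groups did not overlap, and the rise was 1.25 ± 0.13 log2 units (adjusted p = 1.26e-05). Nlrc5, the transactivator of class I genes, rose by 1.31 ± 0.15 and Tap1, a subunit of the peptide transporter, by 1.00 ± 0.11. H2-T22, a non-classical heavy chain, rose by 1.12 ± 0.12 and shares 51.0% of its 31-base words with other genes. Class I genes had a median of 0.58, and −0.15 by library totals with 5 higher and 7 lower, 0.59 above that of all genes.

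Many promoters of interferon genes hold the interferon-stimulated response element (ISRE). Its core, GAAANNGAA, was searched on both strands from 250 bases before to 50 bases after the start in the RefSeq windows of GRCm38.p6. At least 1 match was found in 8.95% of the windows of all tested genes. The share was 21.5% among genes called higher, 38.9% among those higher by over 1 log2 unit and 5.66% among those called lower. It was 64.5% (20 of 31) among the interferon-stimulated effectors and 90.0% (9 of 10) among the GTPases with a window. Among the called members of these lists it was 60.0% (15 of 25) and 88.9% (8 of 9). The share was lower among MHC class I genes (31.2%, 5 of 16) and interferon signalling factors (16.7%, 3 of 18). A match is a description of letters and not a bound site. The 120 bases before the start of 4 genes that rose are printed 5′ to 3′ on the gene's own strand, to show where the matches lie, with matches in capitals (on the other strand the core reads TTCNNTTTC).
Ifit1, chr19:34640769-34640888, plus strand: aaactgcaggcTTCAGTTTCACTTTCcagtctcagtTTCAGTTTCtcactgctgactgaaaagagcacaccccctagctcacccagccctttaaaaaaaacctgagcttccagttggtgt
Apol9a, chr15:77411081-77411200, minus strand: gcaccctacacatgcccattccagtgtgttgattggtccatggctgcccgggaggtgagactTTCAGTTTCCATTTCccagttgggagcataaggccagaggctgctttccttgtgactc
Irgm1, chr11:48871421-48871540, minus strand: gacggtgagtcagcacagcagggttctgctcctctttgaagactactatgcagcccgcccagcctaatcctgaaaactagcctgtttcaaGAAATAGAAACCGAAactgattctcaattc
Igtp, chr11:58199436-58199555, plus strand: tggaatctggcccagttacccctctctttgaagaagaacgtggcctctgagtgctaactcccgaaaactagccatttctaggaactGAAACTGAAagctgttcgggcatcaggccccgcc
Ifit1 holds 3 matches in this stretch, the first 2 overlapping, which begin 109, 103 and 84 bases before the start. Apol9a, shown for 1 of its 2 windows, and Irgm1 each hold a pair of overlapping matches, and Igtp holds 1, beginning 34 bases before the start.

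**Figure D2:**
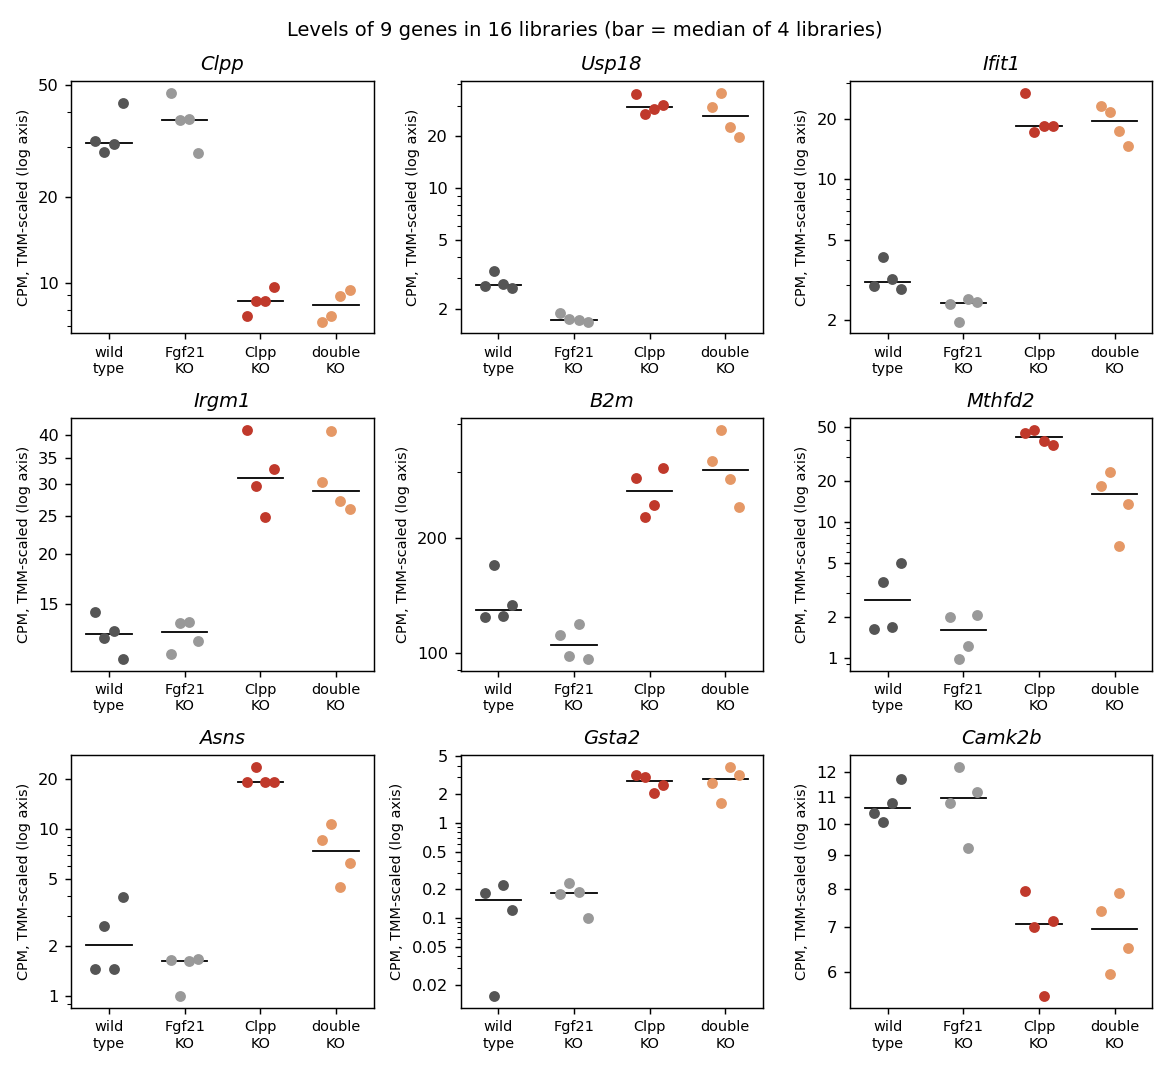
Levels of 9 genes in each of the 16 libraries, as TMM-scaled CPM on a log axis, by genotype; points are libraries and bars are medians of 4. Clpp and Camk2b are lower, and the other genes higher, in all 8 libraries lacking Clpp; the points of Mthfd2 and Asns in double KO lie between those of Clpp KO and of the libraries with Clpp.

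Genes of one-carbon and amino acid metabolism rose in part. Of 20 enzymes of serine synthesis and the folate cycle 5 rose and none fell (25%). Mthfd2, a mitochondrial folate enzyme that adult tissues hold at low levels, had the fourth-largest rise of the named genes. It ran from 6.644 to 47.82 CPM without Clpp (median 30.2) and from 0.980 to 4.979 CPM with Clpp (median 1.84). The groups did not overlap, and the rise was 3.58 ± 0.30 log2 units (adjusted p = 2.33e-06). Phgdh, which commits glycolytic carbon to serine, rose by 2.91 ± 0.34 from a median of 0.937 CPM to 11.1 CPM, with the lowest libraries overlapping and 55.8% of its 31-base words shared with other genes. Psat1, the next enzyme, rose by 1.24 ± 0.16 and Aldh1l2, which oxidises formyl-folate in mitochondria, by 1.95 ± 0.32. The list median was 0.12, and −0.60 by library totals, 0.15 above that of all genes.

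Asns, the asparagine synthetase, was at 4.47 to 23.55 CPM without Clpp (median 14.9) and 1.000 to 3.934 CPM with Clpp (median 1.64). Its rise was 2.73 ± 0.24 (adjusted p = 3.31e-06), with no overlap. Aldh18a1 and Pycr1, which begin and end proline synthesis in mitochondria, rose by 1.46 ± 0.20 and 1.45 ± 0.21. These were the 3 calls among 16 enzymes of asparagine, proline and glutamate, whose median was 0.14, and −0.55 by library totals, 0.20 above that of all genes. For Asns and Mthfd2 the 4 double KO libraries lay below the 4 Clpp KO libraries, and still above every library with Clpp, as the plot of levels in the 16 libraries shows. The rise of Asns was 3.10 with Fgf21 and 2.34 without, a difference that did not pass the test.

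Among 21 factors of the integrated stress response 6 rose and none fell (28.6%), and 4 when the libraries with Ucp1 above 1 CPM were left out. Atf5, a transcription factor of that response, was at 55.26 to 177.1 CPM without Clpp (median 132.4) and 29.17 to 54.1 CPM with Clpp (median 36.6). The rise was 1.66 ± 0.19 (adjusted p = 3.10e-05), with no overlap. Trib3, a pseudokinase that restrains the response, rose by 1.37 ± 0.20 and Sesn2, a leucine sensor upstream of mTORC1, by 0.79 ± 0.14. Gdf15, a stress hormone, ran from 0.4346 to 7.793 CPM against 0.2745 to 1.89 CPM, so that its lowest library without Clpp lay within the other group. It rose by 2.31 ± 0.43 (adjusted p = 0.00493), a call that ended without the 4 libraries with Ucp1 above 1 CPM (adjusted p = 0.0824). The list median was 0.18, and −0.56 by library totals, 0.19 above that of all genes. On the Fgf21-null background 1 member was called by itself, against 3 with Fgf21 (of all genes 0.892% and 1.63%). The list medians on these backgrounds were 0.17 and 0.19. Without wild-type replicates 2 and 4 they were 0.12 and 0.505, over the 22 members then tested.

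Cytosolic aminoacyl-tRNA synthetases, which load amino acids onto tRNA, rose in 11 of 20 tested members with none lower (55.0%). The changes were small. Iars, for isoleucine, ran from 43.87 to 70.24 CPM without Clpp and 25.31 to 40.68 CPM with Clpp, with no overlap, and rose by 0.76 ± 0.11 (adjusted p = 0.000317). Gars, for glycine, was at 52.66 to 71.17 CPM against 32.76 to 48.26 CPM (0.54 ± 0.09). Sars, for serine, rose by 0.56 ± 0.10 and Nars, for asparagine, by 0.53 ± 0.08. Their median was 0.41. By library totals it was −0.29, 0.46 above that of all genes, and 13 members were called lower. No member was called by itself on the Fgf21-null background, against 10 with Fgf21 (of all genes 0.892% and 1.63%). The list medians on these backgrounds were 0.25 and 0.54. None of the 17 mitochondrial synthetases was called (median 0.05, and −0.66 by library totals, 0.09 above that of all genes), with 1 at an unadjusted p under 0.05 by edgeR, 0 called by DESeq2 and 2 lower by limma voom.

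Of 19 amino acid transporters 4 rose and none fell, with 10 by limma voom, and the count was 2 without any one of Fgf21 KO replicates 1 and 3, the 4 Clpp KO libraries and double KO replicate 2. Their median was 0.24, and −0.50 by library totals, 0.25 above that of all genes. Slc7a5, the light chain of the large neutral amino acid transporter, was at 7.327 to 13.22 CPM against 2.757 to 6.373 CPM and rose by 1.52 ± 0.16 (adjusted p = 1.36e-05). Slc7a11, the cystine importer, rose by 0.96 ± 0.24 (adjusted p = 0.0266) at levels under 1 CPM. The other 2, Slc38a2 and Slc38a7, which carry neutral amino acids, rose by 0.60 ± 0.14 and 0.29 ± 0.08, and were −0.12 and −0.44 by library totals. The calls of Slc7a11, Slc38a2 and Slc38a7 ended in 7, 2 and 7 of the 16 fits that left out 1 library. For Slc38a2 these were Fgf21 KO replicate 1 (adjusted p = 0.0548) and Clpp KO replicate 4 (0.0512). For Slc7a11 they were Fgf21 KO replicates 1 and 3, Clpp KO replicates 1, 2 and 3 and double KO replicates 1 and 2 (adjusted p = 0.0502 to 0.0653). For Slc38a7 they were Fgf21 KO replicates 3 and 4, all 4 Clpp KO libraries and double KO replicate 2 (adjusted p = 0.0517 to 0.0818), and it was also not called without wild-type replicates 2 and 4 (0.0632) or without the Ucp1 libraries (0.153).

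The C/EBP-ATF response element, through which ATF4 acts, was searched by its core TGATGNAA in the same windows. It was found in 2.91% of all tested genes with a window, in 5 of 12 tested cytosolic synthetases (41.7%) and in 5 of the 7 called ones (71.4%). Among all genes called higher the share was 6.44%. It was 27.3% (3 of 11) among the asparagine, proline and glutamate enzymes, 31.6% (6 of 19) among the factors of the integrated stress response and 23.1% (3 of 13) among the amino acid transporters. None of the 16 serine and folate enzymes with a window held a match, the 4 called ones included. The upstream 120 bases of 4 genes that rose are shown with the matches in capitals (on the other strand the core reads TTNCATCA).
Asns, chr6:7693210-7693329, minus strand: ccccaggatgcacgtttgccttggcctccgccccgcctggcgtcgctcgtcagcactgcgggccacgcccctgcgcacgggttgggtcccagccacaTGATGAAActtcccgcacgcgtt
Gars, chr6:55037881-55038000, plus strand: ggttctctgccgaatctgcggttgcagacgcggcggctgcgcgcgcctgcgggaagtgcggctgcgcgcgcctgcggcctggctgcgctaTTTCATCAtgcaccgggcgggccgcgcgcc
Slc7a11, chr3:50443614-50443733, minus strand: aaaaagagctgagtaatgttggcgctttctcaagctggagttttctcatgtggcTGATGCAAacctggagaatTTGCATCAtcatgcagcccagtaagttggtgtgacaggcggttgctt
Pycr1, chr11:120643749-120643868, minus strand: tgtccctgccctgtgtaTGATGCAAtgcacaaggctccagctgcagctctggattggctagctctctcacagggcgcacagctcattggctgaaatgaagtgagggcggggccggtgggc
Asns holds 1 match on its own strand, 23 bases before the start, and Gars 1 on the other strand, at 30 bases. Slc7a11 holds 2, at 66 and 47 bases, on opposite strands, and Pycr1 holds 1 at 103 bases.

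In the quality control of mitochondrial proteins 0% of the chaperones and 15% of the proteases were called, against 5.43% of all genes. Of the proteases 7 had an unadjusted p under 0.05 in edgeR, and limma voom called 3 higher and 2 lower. None of 13 mitochondrial chaperones was called by edgeR or DESeq2 (median 0.09, and −0.61 by library totals, 0.14 above that of all genes), with 2 at an unadjusted p under 0.05 in edgeR, and limma voom called 2 higher and 3 lower. Hspa9, the matrix HSP70, was at 472.7 to 584.6 CPM without Clpp and 171.4 to 461.8 CPM with Clpp, so the groups did not overlap, yet the difference of 0.41 ± 0.16 did not pass (adjusted p = 0.119; −0.27 by library totals). Hspd1, the HSP60 chaperonin, differed by 0.29 ± 0.13 (adjusted p = 0.166; −0.40 by library totals). Among 20 mitochondrial proteases the calls were Clpp itself and Immp1l, a peptidase of the inner membrane, both lower, and Nln, an oligopeptidase, higher (list median 0.125, and −0.57 by library totals, 0.175 above that of all genes). Immp1l (−0.26 ± 0.07) and Nln (0.48 ± 0.12, −0.22 by library totals) were near the threshold. They lost their calls in 13 and 8 of the 16 fits that left out 1 library: Immp1l without any single one except wild-type replicate 2 and Fgf21 KO replicates 2 and 4 (adjusted p = 0.0523 to 0.105), and Nln without wild-type replicate 4, Fgf21 KO replicate 1, any Clpp KO library or double KO replicate 1 or 4 (0.0507 to 0.0761). Nln was also not called without the Ucp1 libraries (0.0668), nor Immp1l when the near-identical wild-type replicates 1 and 3 were summed (0.0608).

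Detoxification genes gave some of the steepest rises. Gsta2, an alpha-class glutathione S-transferase, was at 1.631 to 3.881 CPM without Clpp (median 2.81) and 0.0151 to 0.2353 CPM with Clpp (median 0.181). It rose by 4.14 ± 0.31 log2 units (adjusted p = 3.82e-07), and Gsta1 by 2.80 ± 0.29. Gsta1 shares 92.9% of its 31-base words with other genes, mainly Gsta2, and Gsta2 shares 60.7%, so which of these copies carried the reads is uncertain. Gsta4, which shares none, was at 51.12 to 76.15 CPM against 24.24 to 48.4 CPM and rose by 0.67 ± 0.10 (−0.04 by library totals). These were the only 3 higher calls among 21 transferases. Gstk1, the mitochondrial kappa-class enzyme, fell by 0.45 ± 0.10 (adjusted p = 0.0132).

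Of 24 targets of NRF2, the transcription factor of the oxidative stress response, 11 rose and none fell (45.8%), with 7 called without Fgf21 KO replicate 3, Clpp KO replicate 1 or Clpp KO replicate 3, and 18 by limma voom. Gclc and Gclm, the 2 subunits of the first enzyme of glutathione synthesis, rose by 0.695 ± 0.11 and 1.504 ± 0.25; Gclc was −0.03 by library totals. Gclm ran from 19.29 to 54.14 CPM without Clpp and 7.455 to 26.39 CPM with Clpp, where Fgf21 KO replicate 2 was the highest. Its call ended without the 4 libraries with Ucp1 above 1 CPM (adjusted p = 0.0597). Txnrd1, the cytosolic thioredoxin reductase, rose by 0.66 ± 0.12 with no overlap and was −0.04 by library totals, and Aox1, an aldehyde oxidase, rose by 1.06 ± 0.17. The list median was 0.28, and −0.46 by library totals, 0.29 above that of all genes. On the Fgf21-null background 0 members were called by themselves, against 5 with Fgf21 (of all genes 0.892% and 1.63%). The list medians were 0.41 without Fgf21 and 0.32 with it, and 11 of 24 members had the higher fold change without Fgf21. Without wild-type replicates 2 and 4 the medians were 0.39 and 0.515, with 6 of 24. By edgeR the difference was called for 0 members. The core of the antioxidant response element, TGACNNNGC, was found in 40.0% of the list's windows (8 of 20), against 16.5% of all tested genes. Sqstm1, an autophagy adaptor that binds the NRF2 inhibitor KEAP1, rose by 0.99 ± 0.19, and Lamp2, a lysosomal membrane protein, by 0.59 ± 0.13. Without the Ucp1 libraries these were not called (adjusted p = 0.0724 and 0.0532), and Lamp2 was −0.12 by library totals.

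**Figure D3:**
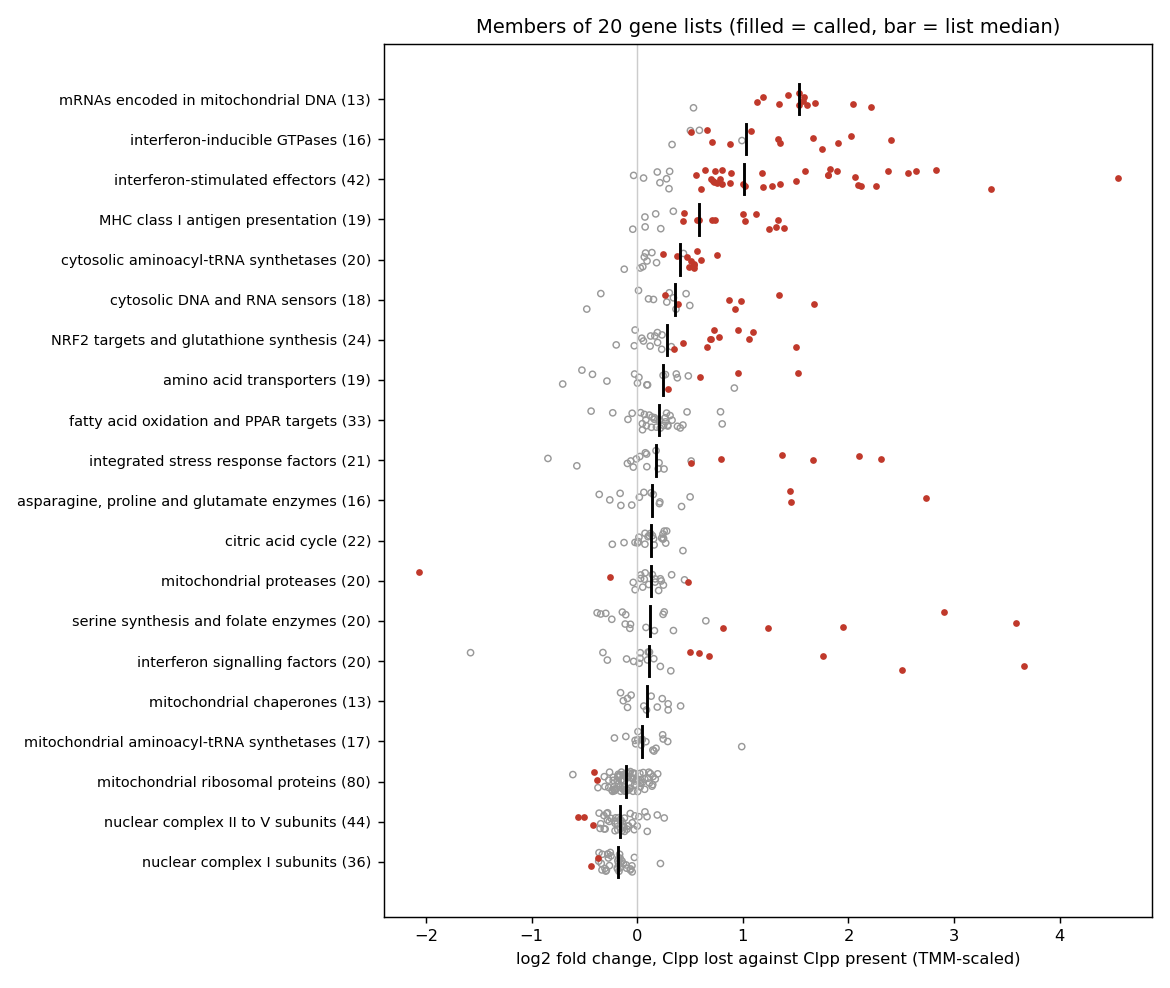
Log2 fold change of each tested member of 20 gene lists, libraries lacking Clpp against libraries with Clpp, scaled by TMM; filled points passed an adjusted p of 0.05, bars are list medians and the number tested is in brackets. List medians run from 1.53 for mRNAs of mitochondrial DNA to −0.19 for nuclear complex I subunits; by library totals alone every median is lower, and only those of mtDNA mRNAs, interferon-stimulated effectors and interferon-inducible GTPases stay above 0.

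Nuclear genes for subunits of the respiratory complexes did not follow the mtDNA-encoded mRNAs. Among 36 nuclear complex I subunits none rose and 2 fell (5.56%, near the 5.43% of all genes), and 1 had a fold change above 0. The list median was −0.19. DESeq2 called 6 lower and limma voom 28, edgeR 4 without Fgf21 KO replicate 2 and 0 without wild-type replicates 2 and 4, with 16 at an unadjusted p under 0.05 in all libraries. The 2 called were Ndufa1 (−0.38 ± 0.10) and Ndufc1 (−0.44 ± 0.12), accessory subunits. For complexes II to V 3 of 44 fell and none rose (6.82%, median −0.16), with 9 lower by DESeq2 and 24 by limma voom. The 3 called by edgeR were Cox7a1, the muscle form of a cytochrome c oxidase subunit, Atp5e of ATP synthase and Uqcr11 of complex III. Cox7a1 was at 181.3 to 326.3 CPM against 300.1 to 552.8 CPM and fell by 0.56 ± 0.11 (adjusted p = 0.00695), a call that held in every fit that left out 1 library. Calls of the remaining 4 ended in 7 to 11 of those 16 fits, among them for each of the 4 the fits without wild-type replicate 4, Fgf21 KO replicate 1, Clpp KO replicates 1, 2 and 3 and double KO replicates 1 and 2 (adjusted p = 0.0523 to 0.0695 for Ndufa1, 0.052 to 0.0898 for Ndufc1, 0.0503 to 0.08 for Atp5e and 0.0526 to 0.0963 for Uqcr11). Fgf21 KO replicate 3 ended those of Ndufc1, Atp5e and Uqcr11, Clpp KO replicate 4 those of Ndufc1 and Uqcr11, and wild-type replicate 1 and double KO replicate 4 that of Uqcr11. Without wild-type replicates 2 and 4 the adjusted p was 0.0602 for Ndufa1, 0.0855 for Ndufc1, 0.0885 for Atp5e and 0.0765 for Uqcr11, and without the Ucp1 libraries 0.0819, 0.106, 0.0983 and 0.0686.

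Of 80 mitochondrial ribosomal proteins 2 fell and none rose (2.50%, median −0.11), with 6 lower by DESeq2, 30 by limma voom, and 4 by edgeR without wild-type replicate 2 or Fgf21 KO replicate 2. These were Mrpl28 and Mrps21, whose calls ended in 12 and 11 of the 16 fits that left out 1 library (adjusted p = 0.0512 to 0.083 and 0.0512 to 0.0986); only wild-type replicates 2 and 3 and Fgf21 KO replicates 2 and 4, and for Mrps21 also double KO replicate 4, could be left out with the call kept. Mrps21 was not called without wild-type replicates 2 and 4 (adjusted p = 0.083) or without the Ucp1 libraries (0.0835), nor Mrpl28 with wild-type replicates 1 and 3 summed (0.0525). By edgeR no gene was called among 22 enzymes of the citric acid cycle (median 0.13), 33 genes of fatty acid oxidation and PPAR targets (0.21), 24 of glycolysis and glucose uptake (0.03), 23 of mitochondrial import (−0.04), 38 assembly factors of the respiratory chain (−0.05) or 11 mitochondrial antioxidant enzymes (0.03). In the same order 0, 5, 4, 2, 5 and 1 genes had an unadjusted p under 0.05, DESeq2 called 0, 1, 1, 0, 1 and 0, and limma voom 1, 8, 7, 6, 9 and 1. The count for fatty acid oxidation was 4, all higher, without Fgf21 KO replicate 2. By library totals the 4 medians above 0 were −0.56 for the citric acid cycle, −0.52 for fatty acid oxidation, −0.67 for glycolysis and −0.69 for the antioxidant enzymes, which is 0.19, 0.23, 0.075 and 0.059 above that of all genes.

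In haem synthesis and breakdown 2 of 15 fell. Alas1, the rate-limiting enzyme, ran from 36.44 to 103.0 CPM without Clpp and 51.13 to 160.1 CPM with Clpp and fell by 1.02 ± 0.23 (adjusted p = 0.0198). Its call ended without Clpp KO replicate 3 (adjusted p = 0.0506) and without the 4 libraries with Ucp1 above 1 CPM (0.0597). Ppox, a later enzyme, fell by 0.36 ± 0.10, a call lost in 10 of the 16 fits (adjusted p = 0.0511 to 0.0865), those without wild-type replicate 4, Fgf21 KO replicate 1 or 4, any Clpp KO library or double KO replicate 1, 2 or 3, and also without wild-type replicates 2 and 4 together (0.051) and without the Ucp1 libraries (0.135).

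Among the 12 largest rises 2 genes belonged to none of the lists, Ifi206, described with the interferon genes, and Vmn2r3. Vmn2r3, annotated as a vomeronasal receptor gene, was at 0.5898 to 5.31 CPM without Clpp and 0.1394 to 0.4527 CPM with Clpp. It rose by 2.91 ± 0.31 (adjusted p = 1.26e-05), and no library overlapped. The 12 largest rises among genes at 1 CPM or more with no overlap were Apol9a, Gsta2, Usp18, Mthfd2, Ifi206, Apol9b, Vmn2r3, Ifit1, Gsta1, Asns, Ifit3b and Ifit3. Each was called in both Fgf21 strata, and each kept its call in all 16 fits that left out 1 library.

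The 12 largest falls by the same rule, Clpp apart, were smaller. Slc27a3, a fatty acid transport protein with acyl-CoA synthetase activity, fell by 0.95 ± 0.22 log2 units, and its call ended without wild-type replicates 2 and 4 (adjusted p = 0.0535) and without the Ucp1 libraries (0.0815). Smim24, a small membrane protein, fell by 0.88 ± 0.17 and Fgf11, an intracellular FGF homologue that binds sodium channels, by 0.84 ± 0.14. Hcn4, the pacemaker channel, was at 2.701 to 5.148 CPM against 5.212 to 15.61 CPM and fell by 0.83 ± 0.20. Its upper end came from wild-type replicate 4, and its call ended without Clpp KO replicate 1, 3 or 4 (adjusted p = 0.0517 to 0.0605).

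Pcbp3, an RNA-binding protein, fell by 0.81 ± 0.19, Spef1, a microtubule-binding protein, by 0.80 ± 0.14, and Cabp1, a neuronal calcium-binding protein, by 0.77 ± 0.13. Ptms, the nuclear protein parathymosin, fell by 0.67 ± 0.15 and Hsd3b7, an enzyme of bile acid synthesis, by 0.67 ± 0.15. Camk2b, a subunit of calcium/calmodulin-dependent kinase II, was at 5.515 to 7.934 CPM without Clpp and 9.21 to 12.21 CPM with Clpp and fell by 0.64 ± 0.09 (adjusted p = 0.000195). Among the 12 it was the one called in both strata. Castor1, the arginine sensor of mTORC1, fell by 0.63 ± 0.16, a call lost in 7 of 16 fits (adjusted p = 0.0527 to 0.0747), those without wild-type replicate 4, Fgf21 KO replicate 1, Clpp KO replicate 1, 2 or 4 or double KO replicate 1 or 2. It was also lost without wild-type replicates 2 and 4 together (0.0841) and without the Ucp1 libraries (0.0767). Pcbp3 and Smim24 were not called without the 4 libraries with Ucp1 above 1 CPM (adjusted p = 0.0564 and 0.0599).

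Of all genes tested 5.43% were called. The share was 5.88% among fetal and stress genes of the heart and 0% among calcium handling genes. It was 6.45% among matrix and fibrosis genes and 10.5% among FGF receptors and ERK feedback genes. Among 17 fetal and stress genes of the heart Acta1, the skeletal α-actin that the stressed heart re-expresses, was the one call, at 178.3 to 362.4 CPM against 52.74 to 286.5 CPM (1.07 ± 0.27, adjusted p = 0.0305). That call ended without wild-type replicate 2, Fgf21 KO replicate 4, Clpp KO replicate 1, 2 or 4 or double KO replicate 1 (adjusted p = 0.052 to 0.0637), and without wild-type replicates 2 and 4 together (0.0646) or the Ucp1 libraries (0.119). None of 21 calcium handling genes was called by edgeR (median 0.004, and −0.68 by library totals, 0.067 above that of all genes), with 3 at an unadjusted p under 0.05, 1 called by DESeq2 and 5 by limma voom. Of 31 matrix and fibrosis genes 2 fell, Sparc and Cilp, both matrix glycoproteins, and neither was called without wild-type replicates 2 and 4 (adjusted p = 0.0534 and 0.157) or without the Ucp1 libraries (0.116 and 0.284). The call of Cilp also ended in 10 of 16 fits that left out 1 library (adjusted p = 0.0574 to 0.0846), those without wild-type replicate 2 or 4, Fgf21 KO replicate 1 or 4, Clpp KO replicate 1, 3 or 4 or double KO replicate 2, 3 or 4. Among 19 FGF receptors and ERK feedback genes 2 rose: Dusp4, an ERK phosphatase, by 1.78 ± 0.32, and Etv5, a transcription factor downstream of ERK, by 0.70 ± 0.14 (−0.01 by library totals). The list median was 0.08, and −0.62 by library totals, 0.12 above that of all genes. Etv5 was not called without the Ucp1 libraries (adjusted p = 0.059). Nr1d2, a repressor of the circadian clock, rose by 0.56 ± 0.12 (−0.15 by library totals) and was not called without those libraries (adjusted p = 0.0637).

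The libraries come from bulk tissue, in which fewer cells of a type and less RNA per cell cannot be told apart. The 9 ventricular markers summed to 27210 to 33920 CPM without Clpp and 19370 to 43050 CPM with Clpp, with none called by edgeR, 1 at an unadjusted p under 0.05 and 1 called by DESeq2 and by limma voom. Their sum was thus high in every library. It was made up mainly of Myh6, Myl2, Myl3 and Tnnt2, and other markers were far lower, such as Hey2 at 2.117 to 3.999 CPM. The 13 atrial markers summed to 527.1 to 4564 CPM against 468 to 11480 CPM, with none called by edgeR, DESeq2 or limma voom, none at an unadjusted p under 0.05, and a median of −0.95 that was −0.03 without wild-type replicates 2 and 4. White fat markers (7 tested) had a median of −2.58, and −0.35 without the same 2 libraries; edgeR called none, with 6 at an unadjusted p under 0.05, and DESeq2 and limma voom each called 1. Beside the interferon genes, 3 of 14 macrophage and monocyte markers rose, Adgre1, Fcgr1 and Cx3cr1, by 0.70 ± 0.17, 1.03 ± 0.27 and 1.06 ± 0.30. Adgre1 is 1 of the 2 genes called within 1 Mb of Clpp, and the part of that position in its rise was not tested. The 14 summed to 182.5 to 292.7 CPM without Clpp and 161.2 to 330.7 CPM with Clpp, none was at 0 in any library, and the list median was 0.23, and −0.52 by library totals, 0.23 above that of all genes. Limma voom called all 14 higher and DESeq2 4. Their part in the interferon result was not tested. The macrophage calls were unstable. Adgre1 ended without Clpp KO replicate 2 (adjusted p = 0.0517; it was −0.04 by library totals). Fcgr1 ended without Fgf21 KO replicates 1, 3 or 4, Clpp KO replicates 1 or 2 or double KO replicates 1 or 2 (0.052 to 0.0791), and Cx3cr1 in 13 of 16 fits (0.0518 to 0.0981), all but those without Fgf21 KO replicate 3 and double KO replicates 3 and 4. Cx3cr1 was also not called without wild-type replicates 2 and 4 (0.123), without the Ucp1 libraries (0.205) or with wild-type replicates 1 and 3 summed (0.0594).

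None of 7 T cell and NK cell markers was called by edgeR (median 0.41, and −0.33 by library totals, 0.42 above that of all genes; 2 at an unadjusted p under 0.05, 1 called by DESeq2 and by limma voom, summed 2.011 to 4.235 CPM against 1.647 to 4.693 CPM), and Cd3g and Gzma were each at 0 in 1 library. S100a8 and S100a9, alarmins of neutrophils, fell by 1.99 ± 0.42 and 1.75 ± 0.50, both below 2 CPM in every library, and S100a8 was not called without the 4 libraries with Ucp1 above 1 CPM (adjusted p = 0.0898). Ly6g, the defining neutrophil marker, was at 0 in 15 libraries. The S100a9 call ended in 13 of 16 fits that left out 1 library (adjusted p = 0.0514 to 0.116), all but those without wild-type replicate 3, Fgf21 KO replicate 2 and double KO replicate 2, and also without wild-type replicates 2 and 4 together (0.139), without the Ucp1 libraries (0.148) and with wild-type replicates 1 and 3 summed (0.05). Pecam1, an adhesion molecule of endothelium, was the one of 12 endothelial markers called, and fell by 0.40 ± 0.09; without the Ucp1 libraries it was not called (adjusted p = 0.0546), and without double KO replicate 3 there were 4 calls. Red blood cell markers had medians of −1.67 with Fgf21 and 1.09 without it, none called by edgeR or DESeq2 and none at an unadjusted p under 0.05, with 4 lower by limma voom, and all 8 were called lower when double KO replicate 4 was left out. The part of these cells in other results was not tested.

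**Figure D4:**
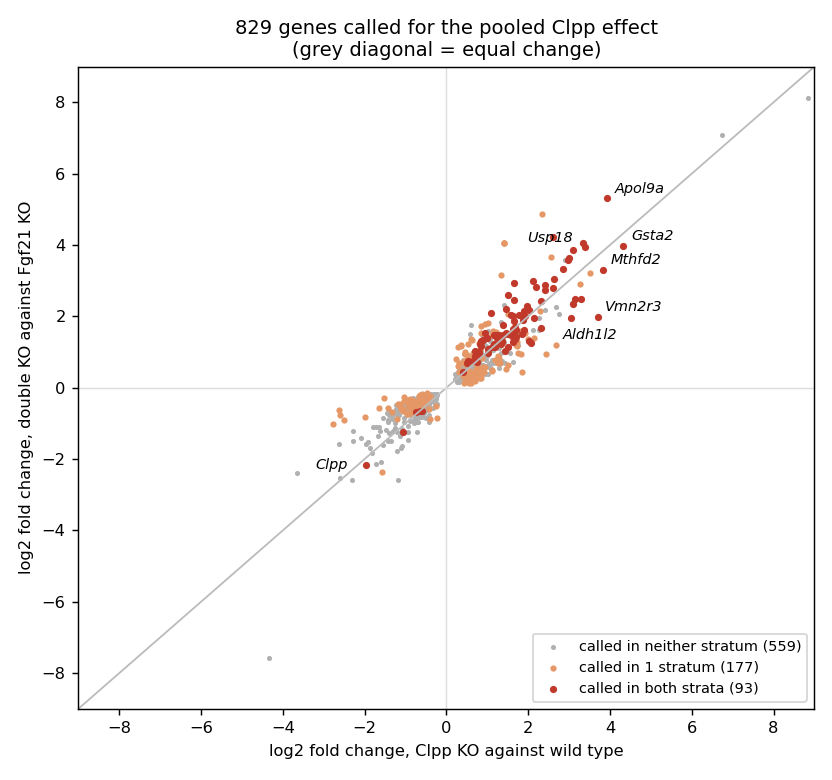
Log2 fold change of the 829 called genes with Clpp loss on the Fgf21-intact background (horizontal) and on the Fgf21-null background (vertical), coloured by the number of strata in which the gene was called by itself. Each gene lies on the same side of 0 on both axes, and 93 were called in both strata, 177 in 1 and 559 in neither.

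The 2 Fgf21 backgrounds share no library, so each gives its own measure of the Clpp effect within one model of the 4 genotypes. With Fgf21 intact 249 genes were called (1.63%), 165 higher and 84 lower. Without Fgf21 136 were called (0.892%), 126 higher and 10 lower. The Clpp effect had the same direction on both backgrounds for 242 of the 249 and for 135 of the 136, against 75.0% of all genes. Of the calls with Fgf21 37.3% were also calls without it, and of those without Fgf21 68.4% were calls with it. Across the 829 genes the correlation of the 2 fold changes was 0.92, and across all genes 0.576; these are over genes, which are not independent replicates, and the 829 were chosen by the additive model on the same libraries, so the value over them describes the choice. The difference of the Clpp effect between backgrounds was called for no gene (0%) by edgeR, with 299 genes at an unadjusted p under 0.05, and for 3 by DESeq2, 1 by limma voom and 1 by edgeR with an atrial covariate.

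Pooling gave 559 genes called in neither stratum, 266 higher and 293 lower. Among those at 1 CPM or more, with a symbol of their own and no overlap of the groups, the 6 with the smallest p are named. They were Zcchc2, a zinc finger protein, Mtf2, a Polycomb accessory factor, and Gbp5, a guanylate-binding GTPase. The others were Serpinb9, the inhibitor of granzyme B, March7, a ubiquitin ligase, and Samhd1, a dNTP hydrolase that restricts retroviruses. All 6 rose, by 0.38 to 0.66 log2 units, and the lack of overlap was a condition of the choice. By library totals all 6 were below 0 (−0.35 to −0.06). Samhd1, as an example, was at 26.02 to 32.83 CPM without Clpp and 18.66 to 24.94 CPM with Clpp (0.38 ± 0.07, adjusted p = 0.00668). Single calls with Fgf21 intact depended on the libraries, with 504, 949 and 138 calls when wild-type replicate 1, 3 or 4 was left out. Leaving out Clpp KO replicate 1, 2, 3 or 4 gave 114, 134, 125 or 124.

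How the size of the change compared between backgrounds depended on wild-type replicates 2 and 4. Of the 367 lower genes 296 (80.7%) had the smaller change without Fgf21. When wild-type replicates 2 and 4 were left out, 160 of the 367 (43.6%) had the larger change with Fgf21. Interferon-stimulated effectors had a median of 0.83 with Fgf21 and 1.23 without, and 38 of 42 had the higher fold change without Fgf21, against 53% of all genes. Without the 2 wild-type libraries the medians were 1.00 and 1.21, with 32 of 42, against 47.6% of all genes. Cytosolic aminoacyl-tRNA synthetases went the other way, with medians of 0.54 and 0.25 and 3 of 20 higher without Fgf21, and 0.39 and 0.23 with 4 of 20 when the 2 libraries were left out. For no member of these lists did the difference pass the adjusted test, and the lowest unadjusted p were 0.00344 and 0.0198.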

How the data were processed

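Cardiac RNA of 16 libraries, 4 per genotype, was sequenced after stranded mRNA library preparation on a NovaSeq sequencer, per the labels' protocols. The authors deposited 1 table of counts for 36499 genes. Per the submitters' processing notes, fastp 0.21.0, kallisto 0.46.1, edgeR 3.32.1, DESeq2 1.30.1 and GRCm38.p6 were used; their roles are not given there. The counts are whole numbers, and reads shared by similar genes may have been split between them by estimation. No per-sample column was left unused.

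Genes were kept by edgeR 4.0.16 filterByExpr over the 4 genotypes (count minimum 10, total minimum 15), leaving 15255 of the 24625 with any count, and scaled by TMM. The Clpp effect was tested with edgeR's robust quasi-likelihood test in an additive model with Fgf21 (13 residual degrees of freedom; common biological coefficient of variation 0.247), with Benjamini-Hochberg adjustment and a threshold of 0.05. A model of the 4 genotypes (12 residual degrees of freedom) gave the effect on each Fgf21 background and their difference. Errors are standard errors of log2 fold changes.

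Members and lists were chosen with earlier results of these data known, so lists carry no test of their own. Named genes are Clpp and the 12 largest rises and 12 largest falls without overlap at 1 CPM or more. Up to 4 called genes per list (the 2 with the smallest p where none was called) are also named. So are 6 genes called for the pooled effect alone, under the same level and overlap rule, and mt-Nd6 was added. Some genes that this rule selects are not reported here. Alternatives were DESeq2 1.42.0, limma 3.58.1 voom, library totals, TMM from nuclear genes, other filters, a replicate block, an atrial covariate, other models and left-out libraries; leaving out the 4 libraries with Ucp1 above 1 CPM was chosen after seeing the data. Promoter windows are RefSeq's for GRCm38.p6: 11373 of 15069 tested symbols had one.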

Additional observations from a re-analysis of the deposited data

Results flagged for a closer look

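In 27 of 416 groups of 4 libraries (6.49%) 1 library lay farther from the other 3 than Dixon's 95% critical value allows; chance does so in about 1 of 20 groups. Clpp KO replicate 1 had 6 of these values, wild-type replicates 2 and 4 and Fgf21 KO replicate 2 had 4 each, Fgf21 KO replicate 1 and double KO replicate 2 had 3 each, and Clpp KO replicate 2, Fgf21 KO replicate 4 and double KO replicate 3 had 1 each. The cause was not tested. Levels are TMM-scaled CPM.

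Fgf21 KO replicate 1 held 29.15% of its counts on mtDNA-encoded mRNAs, against 37.78% to 38.76% in the other 3. In the same library mt-Co2 stood at 37530 CPM, above the others (33370 to 33820), and Castor1, the arginine sensor, at 6.386 CPM (3.683 to 4.004). Fgf21 KO replicate 2 was high for the aldehyde oxidase Aox1 at 32.43 CPM (13.4 to 16.6) and the glutathione enzyme Gclm at 26.39 CPM (8.023 to 9.323), and low for Asns at 0.9999 CPM (1.616 to 1.672) and Ifit3b at 1.176 CPM (2.135 to 2.27). Fgf21 KO replicate 4 was low for the chaperone Hspa9, at 385.2 CPM against 449.1 to 452.2 CPM.

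Clpp KO replicate 1 was the highest of its genotype for 3 interferon genes, Ifit1 at 27.03 CPM (17.27 to 18.48), Ifit3b at 19.98 CPM (12.32 to 12.8) and Irf9 at 23.12 CPM (18.24 to 19.07), and for Gsta1 at 11.36 CPM (7.808 to 8.163). It was the lowest for mt-Nd6 at 7287 CPM (8848 to 9089) and Smim24 at 0.5945 CPM (0.8747 to 0.9185). Clpp KO replicate 2 was high for Asns, at 23.55 CPM against 18.98 to 19.17 CPM. Double KO replicate 2 was high for the GTPase Igtp at 85.56 CPM (30.02 to 38.25) and the transactivator Nlrc5 at 10.99 CPM (5.548 to 6.001), and low for Smim24 at 0.4864 CPM (0.7376 to 0.7761). Double KO replicate 3 was high for the transporter Slc38a2, at 197.0 CPM against 115.3 to 127.6 CPM.

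Among wild-type libraries replicate 2 was high for Ifit3b at 3.788 CPM (2.265 to 2.397), Tap1 at 9.975 CPM (7.696 to 7.971), Pecam1 at 150.4 CPM (112.8 to 118.9) and Vmn2r3 at 0.4527 CPM (0.2724 to 0.2869). Replicate 4 was high for Fcgr1 at 2.459 CPM (0.8062 to 1.056), Hcn4 at 15.61 CPM (6.248 to 7.183), Slc7a5 at 6.373 CPM (2.878 to 3.456) and Uqcr11 at 336.1 CPM (243.1 to 254.0).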

How the results depend on the processing

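Of 829 calls for the pooled effect, 249 with Fgf21, 136 without it and 0 for the difference, DESeq2 gave 1640, 841, 209 and 3, limma voom with quality weights 3417, 2815, 370 and 1, and library totals alone 13327, 11933, 10858 and 0. Of the 829, 828, 802 and 622 were among these calls, in that order. An atrial covariate gave 642 pooled calls, 590 of them among the 829, with 857 calls with Fgf21, 158 without it and 1 for the difference. Without wild-type replicates 2 and 4 there were 159 with Fgf21 and 241 without it, and without the 4 libraries with Ucp1 above 1 CPM 465 pooled and 107 with Fgf21. The 8 libraries with Fgf21 alone gave 151 calls, and the 8 without it 140. Leaving out 1 library gave 444 to 1393 pooled calls, 114 to 949 with Fgf21, 94 to 160 without it, and 0 for the difference in all 16 fits.

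The deviations of same-numbered libraries of different genotypes correlated at −0.228 to 0.357, with 4 of 24 pairs over 0.1. Differently numbered libraries were not compared, so these values cannot decide whether replicate numbers pair the libraries. With a replicate block there were 568 pooled calls, 547 of them among the 829, 146 with Fgf21 and 109 without it.

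Library totals turned the sign of 23 of the 103 genes tracked singly: Hspd1 (−0.40), Hspa9 (−0.27), Adgre1 (−0.036), Etv5 (−0.005), Gars (−0.17), Gbp5 (−0.061), Gclc (−0.029), Gsta4 (−0.045), Irf9 (−0.15), Lamp2 (−0.12), March7 (−0.086), Mtf2 (−0.12), Nars (−0.17), Nln (−0.22), Nr1d2 (−0.15), Samhd1 (−0.35), Sars (−0.15), Serpinb9 (−0.31), Slc38a2 (−0.12), Slc38a7 (−0.44), Txnrd1 (−0.035), Zcchc2 (−0.17) and mt-Nd6 (−0.16). Of the 100 called among them 79 kept the call in all 16 fits without 1 library and 100 by DESeq2. The cause of these changes was not tested. Depth was not tested as a limit.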

Other observations

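Calls in other stress and housekeeping programmes are given beside the 5.43% of all genes that were called. In the unfolded protein response of the endoplasmic reticulum 1 of 23 tested genes was called (4.35%), the co-chaperone Dnajb9, higher (list median −0.15). Among 23 cell cycle genes it was 1 (4.35%), Ccnd2, higher (−0.19). Of 18 hypoxia targets Hif1a was called higher and P4ha1 and Ndrg1 lower (16.7%). By edgeR no gene was called among 18 cytosolic heat shock proteins (5 at an unadjusted p under 0.05, 1 called by DESeq2 and 4 by limma voom), 49 cytosolic ribosomal proteins (1, 1 and 2), 21 genes of cholesterol synthesis (7, 2 and 5), 15 of iron-sulphur cluster assembly (2, 0 and 4) or 19 of mitochondrial dynamics and mitophagy (1, 0 and 2), each in that order. Among 23 genes of mtDNA upkeep and transcription Mterf4 was called lower (4.35%), and among 31 of mitochondrial RNA processing and translation Pnpt1 was called higher (3.23%). Dnajb9 was not called without Fgf21 KO replicate 1, and Mterf4 without Fgf21 KO replicate 1 or Clpp KO replicate 1 or 3. Pnpt1 was not called in 8 of the 16 fits that left out 1 library. Without the 4 libraries with Ucp1 above 1 CPM the lists of Dnajb9, Ccnd2, Hif1a and Pnpt1 held no higher call. The list of Mterf4 then held no call, and that of the hypoxia targets 2 lower. Without wild-type replicates 2 and 4 the list of Pnpt1 held no call.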
